A study of Mus musculus with 4 samples.

Results

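Laminins, nidogens and integrins are the adhesion system of the basement membrane, and 37 genes of this system were followed in mouse fetal gonads, out of 40999 features listed in each library. The members were taken by their gene symbols and hold 12 laminin and nidogen genes and 25 integrin genes. Each library came from wild-type C57BL/6J gonads, 6 or more of each sex, taken out of 2 litters. The deposited description gives XX and XY in equal numbers, while the study's methods give only the minimum of each sex. There was 1 pool and 1 library for each embryonic day, E11.5 to E14.5. No treatment or altered allele was used, and because the sexes were pooled no value here belongs to testis or ovary alone. The E11.5 pool was the only one taken with the mesonephros attached, so that age and dissection cannot be told apart in any comparison with E11.5.

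A laminin is a trimer of 1 alpha, 1 beta and 1 gamma chain, secreted by the cell and assembled into a sheet at the cell base. Nidogens tie this sheet to the collagen IV network, and integrins, pairs of 1 alpha and 1 beta subunit, are the receptors by which cells hold on to it. In the fetal gonad a basement membrane underlies the surface epithelium, and in XY gonads another one encloses the forming testis cords. Integrins with the beta 1 subunit also serve the primordial germ cells on their way into the gonad.

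From the earliest to the latest day, the order kept for all values below, the libraries held 31266481, 25593453, 31752562 and 31526303 deduplicated counts. The 10 most abundant features took 23.5%, 15.1%, 14.6% and 57.3% of the counts, so the E14.5 library held the fewest reads for all other genes. The libraries were therefore scaled by TMM (trimmed mean of M-values), with factors of 1.10, 1.23, 1.25 and 0.597. The level of a gene below is its CPM, with the library total scaled by TMM, per kb of listed exon length, which can be compared between genes and between libraries. Intervals are exact 95% intervals that cover counting error only, since no time point has a replicate and no test of the conditions was possible. A feature was called higher or lower when it changed at least 2-fold and the interval of its ratio excluded no change, among the 20114 features with enough counts. Of the 37 members, 36 were among these, and Itgax, with 1, 3, 5 and 4 counts, was not. Where a gene has 0 counts, up to 3 counts are allowed, which after TMM scaling is 0.0875 CPM at E11.5 and 0.159 CPM at E14.5.

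The markers of the labelled tissue were present in every library. The summed level of 6 early gonadal somatic genes was 200.3, 279, 255 and 217, with Wt1 at the highest level among them at E11.5 and Gata4 on the later days. Of the 9 nephric genes, 7 were lower at E12.5 than at E11.5, and their summed level went from 52.9 to 9.60, then 7.44 and 8.97. Pax2, the nephric gene with the most counts over the 4 libraries, had 1531, 60, 73 and 36 counts. All 5 germ cell genes were higher at E12.5 than at E11.5, and their summed level was 7.76, 124, 153 and 139, with Dazl at 53, 4555, 8230 and 3061 counts. The summed level of the 5 Sertoli genes was 24.0, 303, 276 and 305, with Sox9 the highest of them at E11.5 and Amh from E12.5 on. That of the 5 pregranulosa genes was 42.2, 58.3, 75.2 and 65.5, where Wnt4 was highest at E11.5, Fst at E12.5 and E13.5 and Foxl2 at E14.5. The 5 Leydig genes summed to 5.59, 80.0, 350 and 584, and Insl3 was at 0 at E11.5. Cyp17a1 was the highest of them at E13.5 and E14.5, Cyp11a1 at E11.5 and Hsd3b1 at E12.5. In a bulk library, fewer cells of a type and less RNA per cell cannot be told apart.

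All 37 members together had a summed level of 401, 506, 515 and 537. The laminins and nidogens gave 193, 219, 226 and 255 of it, and the integrins 208, 287, 290 and 282. Itgb1 was the most abundant member in all 4 libraries, followed by Lamb1 at E11.5, E12.5 and E14.5 and by Itga6 at E13.5. Between E11.5 and E12.5, 12 of the 36 members were called, 9 of them higher and 3 lower. Of all features tested, 16.3% were called, 8.1% higher and 8.23% lower. The median log2 fold change of the 36 members was 0.13, against -0.0027 for all features. The next step, E13.5 versus E12.5, called 3 members, 1 higher and 2 lower, against 4.07% of all features (2.55% higher and 1.52% lower), with a median of 0.0037 for the members and 0.0052 for all features. At E14.5 versus E13.5, 3 members were called higher and none lower, against 7.26% of all features (5.8% higher and 1.47% lower), with medians of 0.14 and -0.0098. Across the 2 days without mesonephros, E14.5 versus E12.5, 3 members were called higher and 1 lower, against 10.4% of all features (7.94% higher and 2.49% lower), with medians of 0.13 and -0.0014. The shares of members called in the last 2 comparisons, 8.33% and 11.1%, lie close to those of all features. Both comparisons depend on the scaling. With total counts, 20 and 19 of the 36 log2 values changed sign, and with the deposited TPM 21 in each. None of the 3 members called higher at E14.5 versus E13.5 with TMM was called there under these scalings. Other members were called there instead, all of them lower, where the median of all features fell as well. Their numbers are given under the dependence on the processing, beside those of all features. All calls rest on 1 library a day. In edgeR's exact test at a preset biological coefficient of variation of 0.2, 6 of the 12 calls at E12.5 remained (Lama3, Lama5, Itga11, Itga4, Itgb2 and Itgb8), none at either later step, and Lama2 alone over the 2 days. At 0.1 it called 12, 3, 0 and 3 members in the 4 comparisons, and at 0.4 none. The calls of all features at these settings are given under the dependence on the processing, at 0.1 for the steps to E13.5 and E14.5 only. These comparisons share libraries and are not independent of each other. The 12 calls at E12.5 coincide with the higher germ cell, Sertoli and Leydig genes and the lower nephric genes given above, whose part in them was not tested.

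**Figure D1:**
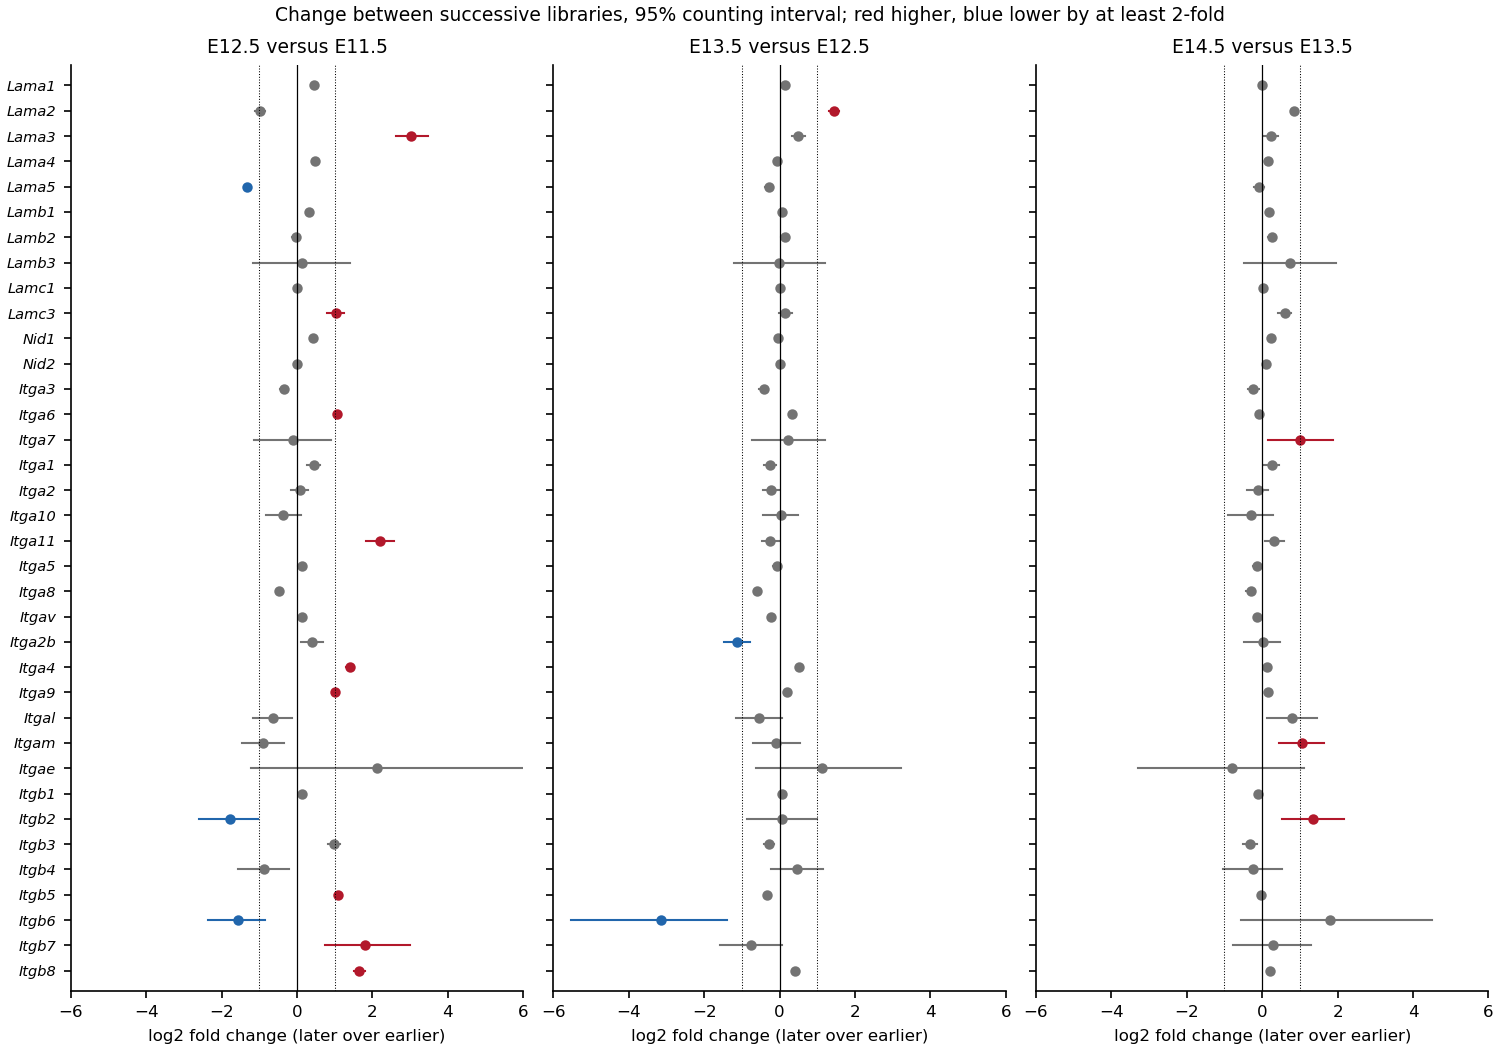
Log2 fold change of the 36 members with enough counts between successive libraries (x axis, later over earlier), with the 95% counting interval as a line, red for members called higher, blue for members called lower and grey for the others. The dotted lines mark 2-fold, and the interval of Itgae in the first panel runs past the axis to 7.75. Coloured points are 12 in the first panel and 3 in each of the others.

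The laminin alpha chains, which set the receptor a laminin binds, changed their order between E11.5 and E14.5. Lama5, the alpha chain of many epithelial basement membranes (chr2:180176373-180225912, mm10), had 4072, 1493, 1546 and 691 counts, and levels of 10.2, 4.09, 3.36 and 3.16. It fell 2.50-fold at E12.5, with a log2 fold change of -1.32 (95% interval -1.41 to -1.23), and its E11.5 library stands above the other 3. Its share of all alpha chain reads per kb went from 26.8% (26.1 to 27.6) to 10.2% (9.67 to 10.7), 7.62% and 6.27% (5.82 to 6.74). A share within a family does not depend on the scaling between libraries.

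Lama2, the alpha chain of muscle and peripheral nerve basement membranes (chr10:26981285-27617114), took the opposite course after E12.5. It had 1364, 635, 2185 and 1875 counts, and levels of 3.998, 2.03, 5.55 and 10.005. The log2 fold change was 1.45 (1.32 to 1.58) at E13.5 and 0.85 (0.76 to 0.94) at E14.5, which adds up to 2.30 (2.17 to 2.43) over the 2 days. With the ratio of the deposited TPM, the value over the 2 days was 0.81, where the median of all features was -1.49. At E12.5 it stood 1.97-fold below E11.5, just inside the 2-fold limit, with a log2 value of -0.98 (-1.11 to -0.84). Lama2 went from 5.05% (4.67 to 5.45) of the alpha chain reads at E12.5 to 12.6% at E13.5 and 19.9% (19.0 to 20.7) at E14.5. The ratio of Lama2 to Lama1, which is also free of the scaling, was 0.362, 0.133, 0.331 and 0.600. The summed level of 6 smooth muscle and contractile genes, Des the highest at E11.5 and Acta2 after it, was 40.1, 34.4, 50.8 and 66.1, with 3 of the 6 higher at E14.5 than at E12.5. That of 6 neural crest and glia genes, Sox10 the highest of them from E12.5 on, was 9.13, 6.61, 6.75 and 7.33. Between E12.5 and E14.5, 3 of the 6, Th, S100b and Foxd3, were called higher and 0 lower. Th went from only 2 counts to 11 and Foxd3 from 5 to 14. Sox10 was not called, and its level went from 4.18 to 3.20 over the same 2 days. The part of these cells in the course of Lama2 was not tested.

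Lama3, the alpha chain of the epithelial laminin that anchors skin, was the member with the largest rise at E12.5 among the 36. It had 53, 398, 710 and 399 counts, and levels of 0.129, 1.05, 1.49 and 1.76. The rise at E12.5 was 8.20-fold, a log2 fold change of 3.04 (2.62 to 3.48), and the E11.5 library lay below all 3 later ones. Even at its highest it held 3.499% (3.17 to 3.86) of the alpha chain reads. Lamb3, its usual beta partner, had 12, 12, 15 and 12 counts and a log2 value of 0.13 (-1.16 to 1.41) at E12.5.

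Lama1 and Lama4 carried most of the alpha chain reads in every library. Lama1, the alpha chain of the first embryonic basement membranes, had levels of 11.1, 15.2, 16.7 and 16.7, and Lama4, the alpha chain of blood vessel walls, 12.7, 17.9, 17.0 and 18.8. At E12.5 their log2 values were 0.46 (0.40 to 0.53) and 0.49 (0.41 to 0.56), and neither reached 2-fold in any comparison. The ratio of Lama4 to Lama1 stayed between 1.02 and 1.17. The summed level of 9 endothelial genes, led by Cdh5, was 139, 126, 96.1 and 86.9, with none of the 9 called in any comparison.

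Of the beta and gamma chains, the common ones stayed within 2-fold in all 4 comparisons. Lamb1 had levels of 43.9, 54.4, 56.6 and 64.7, and Lamc1, with which it pairs in most laminins, 32.9, 33.1, 33.7 and 34.4. Lamc1 moved least of all 37 members, with its highest library 1.05-fold above its lowest, while Lamb1 at E14.5 stood 1.47-fold above E11.5. The ratio of Lamb1 to Lamc1 was 1.33 (1.30 to 1.37), 1.64, 1.68 and 1.88 (1.82 to 1.95). Lamb2, a beta chain of kidney and synapse, had levels of 10.6, 10.4, 11.4 and 13.54.

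Lamc3, a gamma chain of fewer tissues, had 278, 517, 725 and 521 counts and levels of 1.37, 2.78, 3.09 and 4.67. It was called higher at E12.5 with a log2 fold change of 1.02 (0.81 to 1.24), close to the 2-fold limit. Within the 2 gamma chains listed as members, its share was 3.99% (3.55 to 4.48), 7.75% (7.12 to 8.41), 8.41% (7.84 to 9.01) and 12.0% (11.02 to 12.9). Those intervals overlap between E12.5 and E13.5 and are apart between the other neighbours.

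Nid1 and Nid2, the linkers of laminin to collagen IV, were not called in any comparison. Nid1 had levels of 35.6, 48.1, 46.3 and 54.1, and Nid2 30.1, 30.0, 30.4 and 32.7. The ratio of Nid2 to Nid1 was 0.847 (0.817 to 0.878) at E11.5 and 0.623 (0.601 to 0.646), 0.656 and 0.604 after it. Nid2 shares 386 exon bases with 2700060E02Rik on the opposite strand, which had 2226, 2215, 2846 and 1274 counts. The library kit keeps strand, but whether the counting used it is not given in the sources used here. Itga4, Itga7, Itga8, Itgb1, Itgb4 and Lamb1 also share exon bases with a gene on the opposite strand, 306 at most, and Lama5 with mir-7005 on its own strand, which had no counts.

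**Figure D2:**
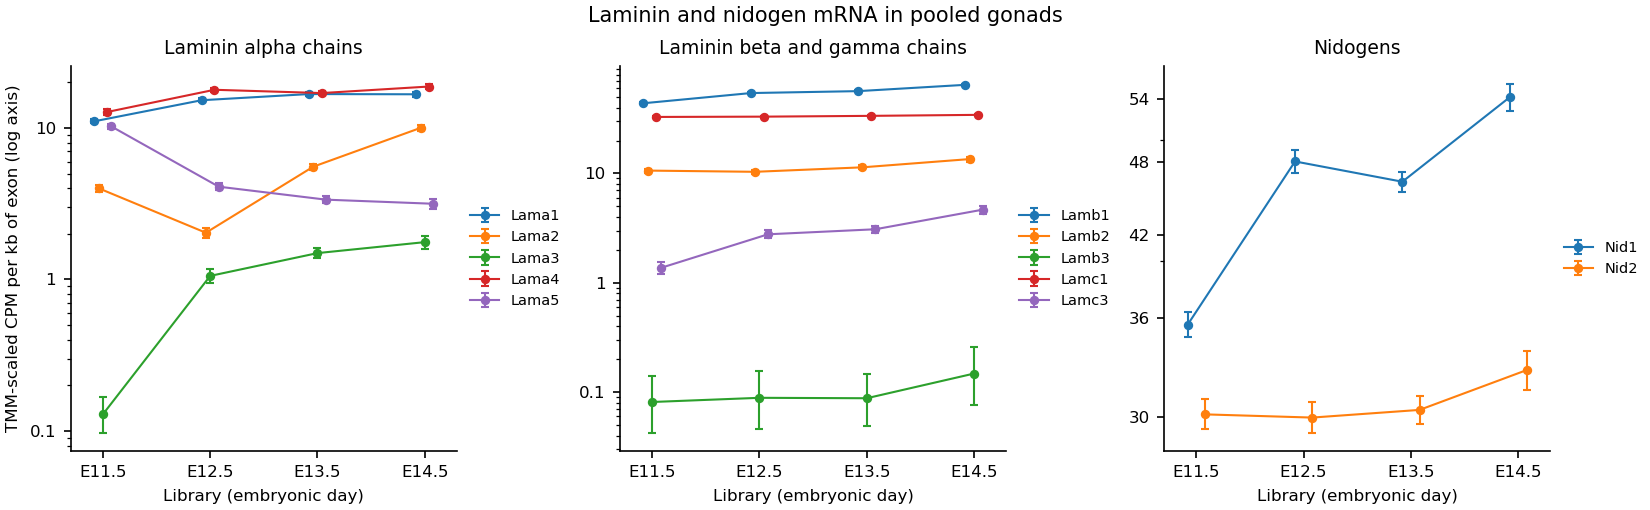
Level of each laminin and nidogen gene (y axis, TMM-scaled CPM per kb of exon, log scale) in the 4 libraries (x axis, embryonic day), with exact 95% counting intervals as bars. Lama5 goes from 10.2 to 3.16 while Lama2 goes from 2.03 at E12.5 to 10.005 at E14.5, and Lamc1 stays between 32.9 and 34.4.

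Among the integrin alpha subunits that bind laminin, Itga6 and Itga3 parted. Itga6 (chr2:71786886-71858427), a laminin receptor of epithelial and germ cells, had 4589, 8825, 14053 and 6353 counts and levels of 21.8, 45.9, 57.9 and 55.1. It rose 2.10-fold at E12.5, a log2 fold change of 1.07 (1.02 to 1.12). Itga3 had levels of 10.7, 8.40, 6.26 and 5.32, with log2 values of -0.35, -0.42 and -0.23 at successive steps, none past 2-fold. The ratio of Itga3 to Itga6 was 0.491 (0.465 to 0.518), 0.183 (0.173 to 0.194), 0.108 (0.102 to 0.115) and 0.0967 (0.0880 to 0.106). The intervals of this ratio are apart between E11.5, E12.5 and E13.5 and overlap between E13.5 and E14.5. Itga7, the laminin receptor of muscle, had only 20, 17, 25 and 24 counts, and it was called higher at E14.5 with a log2 fold change of 1.01 (0.14 to 1.88) against E13.5 and 1.23 (0.28 to 2.22) against E12.5. With the libraries scaled by total counts, these values were -0.049 and 0.20.

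Itgb4, which pairs with Itga6 in hemidesmosomes, had 60, 30, 52 and 21 counts, next to 4589, 8825, 14053 and 6353 of Itga6. It overlaps Galk1 on the other strand by 56 exon bases, and Galk1 had 1183, 988, 1178 and 500 counts. Itgb1, the other partner of Itga6 and of most alpha subunits here, had levels of 71.3, 77.7, 80.6 and 74.3. Its highest library stood 1.13-fold above its lowest.

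Collagen is bound by Itga1, Itga2, Itga10 and Itga11, all of them low. Itga11, the collagen receptor of fibroblast-like cells (chr9:62677855-62783979), had 76, 321, 342 and 204 counts and levels of 0.449, 2.07, 1.75 and 2.19. It rose 4.61-fold at E12.5, a log2 fold change of 2.21 (1.84 to 2.59), and all 3 later libraries lie above the E11.5 one. Its share of the 4 collagen receptors went from 7.81% (6.21 to 9.68) to 25.3% (22.9 to 27.7), 24.9% and 28.5%. Itga1 had levels of 2.34, 3.17, 2.66 and 3.17, Itga2 of 2.39, 2.51, 2.15 and 1.98, and Itga10 of 0.567, 0.442, 0.451 and 0.369. None of these last 3 genes was called.

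The alpha subunits that recognise the arginine-glycine-aspartate motif of fibronectin, vitronectin and their like were headed by Itgav, with levels of 21.1, 23.1, 19.9 and 18.1. Itga5, the fibronectin receptor, had levels of 12.3, 13.4, 12.8 and 11.7. Itga8, a receptor for nephronectin known from kidney development, had 4049, 2682, 2241 and 863 counts and levels of 18.3, 13.2, 8.75 and 7.09. Its log2 values were -0.47 (-0.54 to -0.40), -0.59 (-0.68 to -0.51) and -0.30 (-0.42 to -0.19) at the 3 steps, each within 2-fold. The ratio of Itga8 to Itgav was 0.866 (0.832 to 0.903), 0.571 (0.545 to 0.598), 0.440 (0.419 to 0.462) and 0.391 (0.362 to 0.423), and of neighbouring libraries E13.5 and E14.5 alone have intervals that overlap. Npnt, which encodes nephronectin, is among the other ligands below and was not called in any comparison.

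Itga4 and Itga9, sister subunits that bind fibronectin, VCAM1 or tenascin and pair with Itgb1, both rose at E12.5. Itga4 (chr2:79255426-79333114) had 1077, 2596, 4671 and 2427 counts and levels of 3.20, 8.42, 12.0 and 13.1, with a log2 fold change of 1.40 (1.29 to 1.5003) at E12.5. Itga9 (chr9:118606709-118901003) had 3785, 6962, 10039 and 5342 counts and levels of 15.2, 30.5, 34.9 and 39.0. Its change at E12.5 was 2.01-fold, a log2 value of 1.01 (0.95 to 1.06), so that the interval reaches below the 2-fold limit. With TMM scaling, both genes were at their lowest at E11.5 and at their highest at E14.5. In the deposited TPM both were highest at E13.5. Itga9 was then at 71.8, against 26.2 at E14.5, and Itga4 at 24.7, against 8.79. Itga9 was below Itgav at E11.5, with a ratio of 0.721 (0.691 to 0.751), and above it later, with ratios of 1.32, 1.75 and 2.16 (2.06 to 2.26).

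Of the beta subunits that pair with Itgav, Itgb5 and Itgb8 had the largest of their changes between successive libraries at E12.5. Itgb5, which makes a vitronectin receptor with Itgav (chr16:33829665-33949338), had 2265, 4384, 4409 and 2070 counts and levels of 20.1, 42.6, 33.9 and 33.5. It rose 2.11-fold at E12.5, a log2 fold change of 1.08 (1.01 to 1.15). Itgb8, which with Itgav releases TGF-beta from its latent complex (chr12:119158186-119238276), had 584, 1688, 2844 and 1570 counts and levels of 2.21, 6.98, 9.32 and 10.8. Its rise at E12.5 was 3.16-fold, a log2 fold change of 1.66 (1.52 to 1.80), and its share of all beta subunit reads went from 2.26% (2.08 to 2.45) to 5.24%, 7.25% and 8.80% (8.37 to 9.24).

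Itgb6, an epithelial subunit that also releases TGF-beta (chr2:60598292-60722603), went the other way. Its counts were 68, 21, 3 and 5. It was 2.96-fold lower at E12.5, a log2 fold change of -1.57 (-2.35 to -0.84), and lower again at E13.5 by -3.14 (-5.53 to -1.40), where only 3 counts remained. Of the 9 nephric genes, 7 fell over the first of these steps and 3 over the second, but the part of nephric tissue was not tested. Itgb3 had levels of 2.51, 4.95, 4.04 and 3.22, and at 0.98 (0.82 to 1.14) on the log2 scale at E12.5 it lay just under the 2-fold limit.

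**Figure D3:**
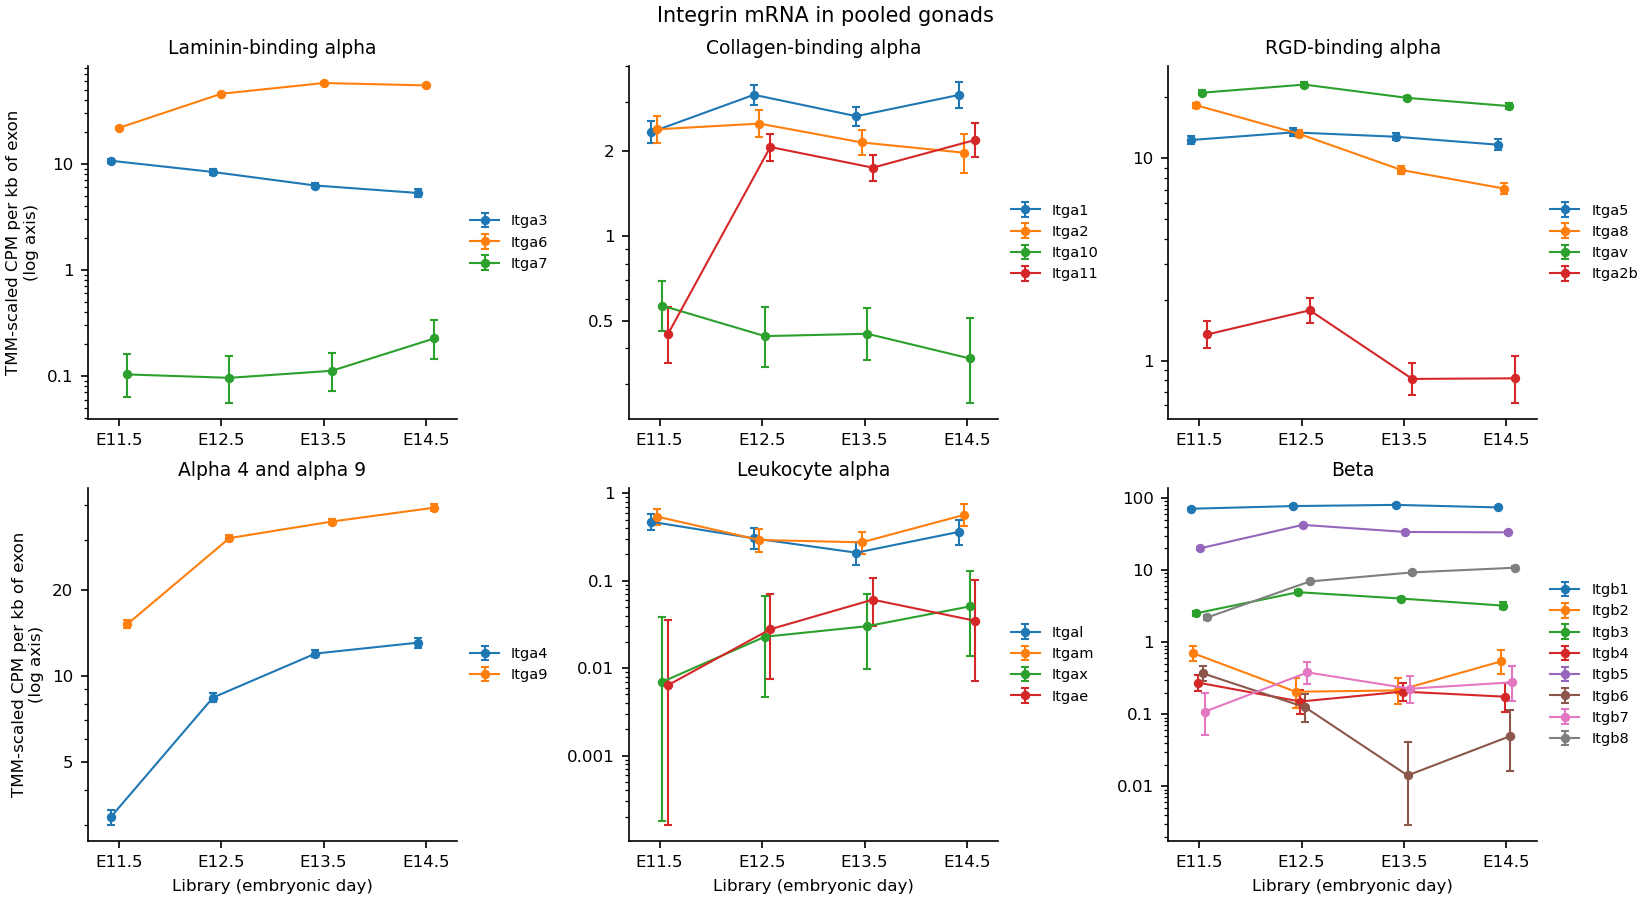
Level of each integrin gene (y axis, TMM-scaled CPM per kb of exon, log scale, set for each panel) in the 4 libraries (x axis, embryonic day), with exact 95% counting intervals as bars. Itga6, Itga11, Itga4, Itga9, Itgb5 and Itgb8 lie lowest at E11.5, Itgb6 lies highest there, and Itgb1 stays between 71.3 and 80.6.

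The windows before the transcription starts of 3 subunits that rose at E12.5 and of Itgb6, which fell, are shown because these integrins moved at the same step. They are the 150 bases before the RefSeq start, in build GRCm38.p6, and that start is the gene start of the deposited files in all 4 cases. RefSeq windows were found for 24 of the 37 members, 27 windows in all. Capitals mark matches, on either strand, to GGGCGG (a GC box) or CCAAT, and TATAAA, the NR5A1 motif AAGGTCA and the GATA motif AGATAA were searched as well.
Itga4: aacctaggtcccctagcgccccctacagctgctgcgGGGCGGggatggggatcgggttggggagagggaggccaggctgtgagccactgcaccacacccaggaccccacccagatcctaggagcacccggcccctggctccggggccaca
Itgb5: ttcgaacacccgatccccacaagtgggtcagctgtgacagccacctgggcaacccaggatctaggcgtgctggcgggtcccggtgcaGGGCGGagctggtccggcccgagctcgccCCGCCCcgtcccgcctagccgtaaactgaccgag
Itgb8: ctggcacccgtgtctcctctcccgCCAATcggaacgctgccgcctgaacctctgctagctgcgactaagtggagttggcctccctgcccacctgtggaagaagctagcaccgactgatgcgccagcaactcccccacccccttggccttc
Itgb6: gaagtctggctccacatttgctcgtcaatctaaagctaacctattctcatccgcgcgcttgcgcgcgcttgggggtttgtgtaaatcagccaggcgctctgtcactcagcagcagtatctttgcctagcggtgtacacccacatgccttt
The Itga4 window lies at chr2:79255276-79255425 on the plus strand, with a GC box 114 to 109 bases before the start. That of Itgb5, chr16:33829515-33829664 on the plus strand, holds GC boxes on the plus strand at 63 to 58 and on the minus strand at 34 to 29 bases before the start. The Itgb8 window, chr12:119238277-119238426 on the minus strand, holds a CCAAT box at 126 to 122. The window of Itgb6, chr2:60722604-60722753 on the minus strand, holds none of the 5 motifs. Windows not shown go the other way. Those of Itga11 and Itgb7, which also rose at E12.5, hold none of the motifs either. Nor does the window of Itga9, which rose too, but its RefSeq start lies 104983 bases from the listed gene start. That window is therefore inside the listed gene and does not describe the bases before its listed start. That of Lama5, which fell, holds 3 GC boxes. The 4 windows shown are therefore no contrast between genes that rose and genes that fell. A GC box was found in 28.6% of 32851 windows of this length and in 8 of the 27 member windows, and CCAAT in 24.5% and in 3. The TATA, NR5A1 and GATA motifs were in 7.57%, 2.31% and 5.65% of all windows and in none of the 27. A match of letters is a description of the window and not a bound site.

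**Figure D4:**
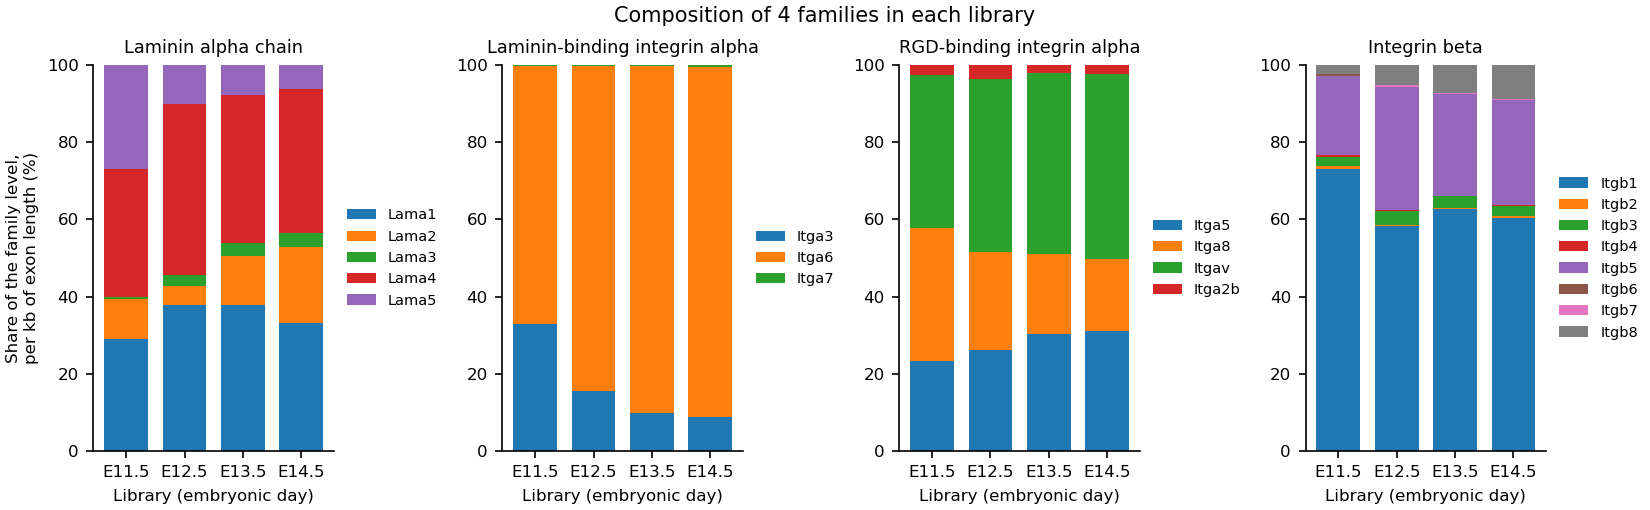
Share of each gene in the reads per kb of its family (y axis, percent) in the 4 libraries (x axis, embryonic day) for the laminin alpha chains, the laminin-binding and arginine-glycine-aspartate (RGD) binding integrin alpha subunits and the integrin beta subunits. Lama5 goes from 26.8% to 6.27%, Itga3 from 32.8% to 8.78% and Itga8 from 34.5% to 18.8%, and Itgb1 holds between 58.4% and 73.0% of the beta subunits.

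The integrins of white blood cells were among the least abundant members. Itgb2, the beta subunit shared by leukocyte integrins (chr10:77530327-77565681), had 71, 19, 25 and 30 counts and levels of 0.702, 0.205, 0.214 and 0.540. It fell 3.42-fold at E12.5, a log2 fold change of -1.77 (-2.59 to -1.03), and rose 2.52-fold at E14.5, a log2 fold change of 1.33 (0.52 to 2.16) against E13.5 and of 1.40 (0.52 to 2.31) against E12.5. The interval of its level at E14.5, 0.364 to 0.771, overlaps that at E11.5, 0.549 to 0.886. Itgam, its alpha partner on macrophages and neutrophils, had 87, 43, 51 and 50 counts, with a log2 value of -0.89 (-1.45 to -0.35) at E12.5 and a rise of 1.04 (0.45 to 1.63) at E14.5. Itgal, the alpha subunit common to most leukocytes, had 88, 52, 45 and 37 counts and was not called in any comparison. Itgae, which binds E-cadherin, had 1, 4, 11 and 3 counts and was not called either, and Itgax, of dendritic cells, had the 1, 3, 5 and 4 counts given above.

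The rises at E14.5 depend on how the libraries were scaled. Against E13.5 and with total counts, the log2 values were 0.27 for Itgb2 and -0.018 for Itgam, and the median of all features was then -1.07. Under that scaling 301 of all features were higher and 11397 lower, against 1166 and 295 with TMM. Such a change of scaling moves every gene by the same amount on the log2 scale, so that the distance of a gene from the median is the same under both.

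Marker genes of 2 kinds of myeloid cell were also lower at E12.5 than at E11.5. The summed level of 8 macrophage genes was 33.6, 12.8, 14.9 and 24.9, with 7 of the 8 lower at E12.5, 1 higher at E13.5 and 2 higher at E14.5 than at E13.5. Lyz2, one of these last 2, held 9.05 of the summed level at E14.5, and Mrc1, with the most counts of the list over the 4 libraries, held 1.86. That of 7 neutrophil granule genes was 22.6, 5.38, 12.7 and 70.7, with 6 of the 7 lower at E12.5 and 5 higher at E14.5 than at E13.5. Mpo had the most of their counts up to E13.5, and S100a9, at a level of 26.8, had the most at E14.5. At E13.5 versus E12.5, 4 of the 7 were higher and 1 lower, with a median log2 value of 1.47, where Itgb2 stood at 0.06 (-0.86 to 1.003) and Itgam at -0.09 (-0.70 to 0.53). Of 6 lymphoid genes, led by Cd3e, the summed level was 2.33, 1.60, 1.10 and 2.38, with Il7r at 0 at E14.5. The part of these cells in the values of Itgb2 and Itgam was not tested.

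Itgb7, which pairs with Itga4 or Itgae on lymphocytes, had 10, 32, 24 and 14 counts and was called higher at E12.5, with a log2 fold change of 1.81 (0.75 to 2.99). Of the 3 lymphoid genes with enough counts, Rag1 was called higher at that step, from 6 counts to 31, while the median of the 3 log2 values was -0.70. Cd3e, the most abundant of the list, stood at that median, with an interval of -1.17 to -0.24. Itgb7 shares 88 exon bases with LOC102639874 on the same strand, which had 6, 1, 2 and 2 counts.

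Itga2b, the platelet subunit that binds fibrinogen together with Itgb3 (chr11:102453297-102470122), had 171, 206, 119 and 57 counts and levels of 1.35, 1.77, 0.812 and 0.817. It fell 2.18-fold at E13.5, a log2 fold change of -1.13 (-1.46 to -0.79), and by E14.5 the difference from E12.5 was -1.12 (-1.57 to -0.69). The libraries form an earlier high pair and a later low pair. Of 7 megakaryocyte and platelet genes, 6 fell at the same step, none was called at E12.5, and their summed level was 16.8, 11.8, 3.63 and 2.99. Pf4, the most abundant of them, had 195, 122, 46 and 14 counts. The partner Itgb3 did not fall by 2-fold in the same comparison, with a log2 value of -0.29 (-0.42 to -0.16). The 5 erythroid genes, of which Slc4a1 had the most counts in each library, summed to 19.3, 20.3, 36.8 and 32.5, with 2 higher and none lower at E13.5. The part of platelets and their precursors in the value of Itga2b was not tested.

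**Figure D5:**
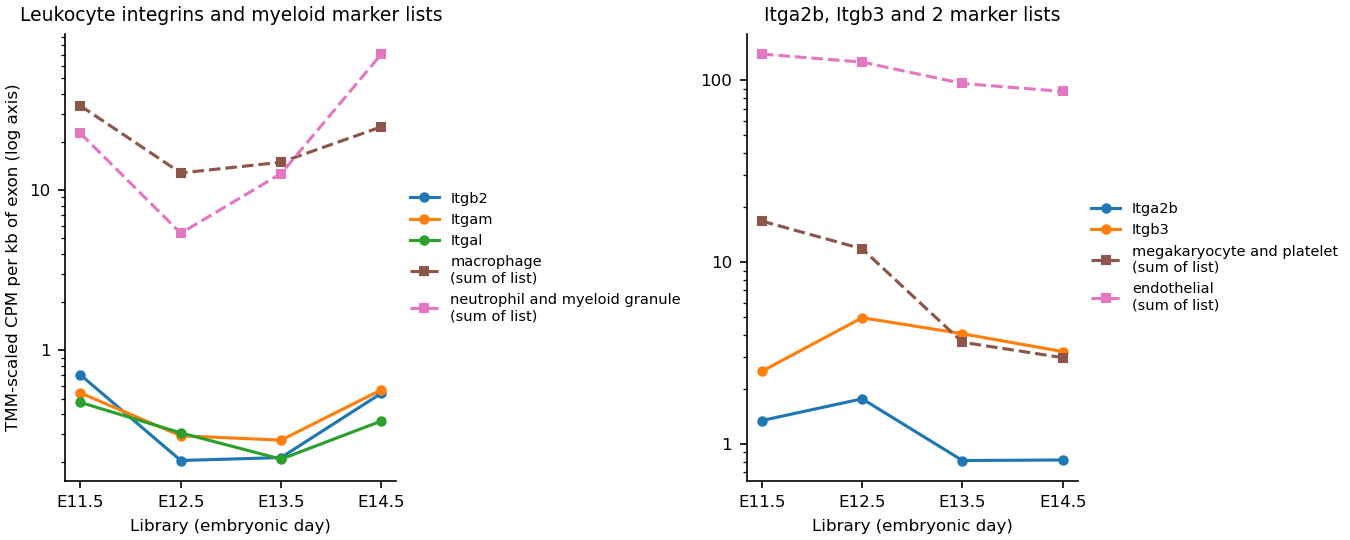
Levels of leukocyte and platelet integrin genes (solid lines) and summed levels of marker lists (dashed lines) in the 4 libraries (x axis, embryonic day; y axis, TMM-scaled CPM per kb of exon, log scale). Itgb2 and Itgam are low at E12.5 and E13.5, as is the macrophage list, and Itga2b and the platelet list drop between E12.5 and E13.5.

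The other components of the basement membrane, 25 genes, had most of their calls at E12.5. At that step, 11 of them were higher and 1 lower. Their median log2 fold change was 0.90, against -0.0027 for all features. Col4a1 and Col4a2, the chains of the common collagen IV trimer, rose by 1.40 (1.36 to 1.43) and 1.39 (1.34 to 1.43) on the log2 scale, and Col4a1 went from 10073 to 24301 counts. Fras1, which holds embryonic epithelium to its stroma, fell by 1.08 (-1.13 to -1.03). At E13.5 none of the 25 was called, and at E14.5 versus E13.5 the netrin gene Ntn1 alone was higher, by 1.04 (0.77 to 1.30). Over E12.5 to E14.5, Egflam at 1.03 and Col4a4 at 1.05 were higher and Fbln2 at -1.20 was lower. Lamc1, Nid1 and Nid2, the chains and linkers that sit beside collagen IV, had log2 values of 0.01, 0.43 and -0.01 at E12.5.

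The laminin receptors outside the integrins are 6 genes, dystroglycan and the syndecans among them. Sdc4, a syndecan of focal adhesions, was called higher at E12.5 with a log2 fold change of 1.29 (1.18 to 1.41), and none of the 6 was called in the other 3 comparisons. Dag1, the dystroglycan gene and the most abundant of them, had levels of 33.7, 62.5, 55.9 and 59.7.

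The adaptors that link integrins to actin, 25 genes, had 1 gene higher and 1 lower at E12.5. Fermt1, an epithelial kindlin, rose by 1.16 (0.36 to 2.01), and Lims2 fell by 1.17 (-2.23 to -0.20), both at low levels of under 1. None of the 25 was called in the other 3 comparisons, and their summed level was 461, 503, 479 and 458.

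Of 19 genes for other integrin ligands, 4 were higher and 3 lower at E12.5, and the median of the 19 log2 values was 0.20. Ctgf, a matricellular ligand, rose by 1.80 (1.71 to 1.89), and Thbs1, thrombospondin, by 1.31 (1.24 to 1.39). Ltbp1, which anchors latent TGF-beta, fell by 1.25 (-1.30 to -1.19), and Postn, periostin, fell by 1.28 (-1.41 to -1.14). Vtn, the vitronectin that Itgav with Itgb5 binds, was called higher at E13.5 from 3 counts to 18, a log2 value of 2.25 (0.47 to 4.66). It was called again at E14.5, from 18 counts to 19, with a log2 value of 1.15 (0.14 to 2.16), which with total counts was 0.088. Madcam1, the ligand of Itga4 with Itgb7, had 28, 63, 38 and 13 counts and was called higher at E12.5, the step at which both of these subunits were called higher, with a log2 value of 1.30 (0.63 to 1.99). It fell by 1.06 (-1.68 to -0.46) at E13.5 and was 1 of 2 lower genes at E14.5 versus E12.5, at -1.54 (-2.53 to -0.66), with Ctgf at -1.29 the other.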

How the data were processed

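Gonads of 4 embryonic days gave 1 stranded total RNA library each, built with unique molecular identifiers after removal of ribosomal RNA with RNase H. The authors trimmed the reads with cutadapt, aligned them to mm10 with STAR, removed duplicates with UMI-tools, took the counts of each gene from featureCounts and deposited them. The authors also deposited TPM, made from the same counts and the listed exon lengths, used here as an alternative only, and RPKM, not used here. Tool versions, the annotation release and the strand setting of the counting are not given in the sources used here. Samples were grouped by the day in their labels.

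From the counts, TMM factors over the 4 libraries and the filter of filterByExpr (20114 features kept) came from edgeR 4.0.16 in R 4.3.3. Levels carry exact Poisson 95% intervals. Ratios of 2 libraries and family shares carry exact Clopper-Pearson 95% intervals, computed with scipy 1.17.1 in Python 3.11.15. A feature was called at 2-fold or more with an interval that excludes no change. With 1 library per day the dispersion cannot be estimated, so the study's edgeR filter (2-fold, FDR of at most 0.05) was run only as an alternative, at preset biological coefficients of variation of 0.1, 0.2 and 0.4. Other alternatives were total counts, pairwise TMM, DESeq2 1.42.0 size factors, TMM without the 10 most abundant features, the ratio of the deposited TPM, no filter, a minimum of 10 counts in each library compared, and limits of 1.5-fold and 4-fold. TMM over 3 libraries was added after seeing the data.

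The depth runs from 25593453 to 31752562 counts, and after TMM scaling 3 counts are 0.0875, 0.0956, 0.0758 and 0.159 CPM from E11.5 to E14.5. Intervals cover counting error only.

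Every member is accounted for. Of 4 lists of related genes (other basement membrane components, other laminin receptors, integrin adaptors, other integrin ligands), the 2 genes with the most counts among those called in a direction are named, with genes that the members bind besides. Of 14 cell marker lists (gonadal somatic, Sertoli, pregranulosa, Leydig, germ cell, nephric, endothelial, macrophage, platelet, neutrophil granule, lymphoid, erythroid, smooth muscle, neural crest), the gene with the most counts over the 4 libraries is named, with others, chosen after their values were seen, where a count needs them or where another gene had the highest level in a library. The members and the lists were chosen with earlier results of these data known. Tns2, Adgre1 and Epb42 of these lists were not analysed here. Values of a few further genes are left out. Promoter windows are from RefSeq, GRCm38.p6.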

Additional observations from a re-analysis of the deposited data

How the results depend on the processing

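No paired analysis was possible because each time point has 1 library, and for the same reason no replicate could be left out. Scaling by TMM in pairs, by DESeq2 size factors, by TMM without the 10 most abundant features or, added after seeing the data, by TMM over 3 libraries gave 12, 3, 3 and 4 members called over the 4 comparisons, as many as reported. The order is that of the 3 successive steps and then the 2 days from E12.5 to E14.5. The shares within families are the same from the deposited TPM by construction, since TPM was made from the same counts and lengths. Of the members' log2 values under another scaling, 669 of 864 stayed within their counting interval. In all, 100 changed sign, 7 of them values of called members, and total counts gave 20 and 19 of the changes in the 2 comparisons of E14.5 (with E13.5 and with E12.5) and the deposited TPM 21 in each.

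With total counts, the median log2 fold change of the members was 0.29 at E12.5 versus E11.5, -0.93 at E14.5 versus E13.5 and -0.91 at E14.5 versus E12.5, and that of all features 0.16, -1.07 and -1.04. With the deposited TPM, the members' median was 0.42, 0.13, -1.48 and -1.36 over the 4 comparisons, and that of all features 0.28, 0.13, -1.63 and -1.49. At E14.5 versus E13.5, 15 members were called with total counts and 29 with TPM, all lower, and all features had 11698 and 17187 calls in place of 1461. At E14.5 versus E12.5, 15 (1 higher) and 26 members were called, and all features had 10657 and 15795 calls in place of 2099. Itga7 changed sign at E14.5 versus E13.5 (-0.049 with total counts, -0.61 with TPM) and versus E12.5 (-0.25 with TPM), Itgam versus E13.5 (-0.018 and -0.58), and Itgb2 versus E13.5 (-0.28) and E12.5 (-0.093) with TPM. Lama2 at E14.5 versus E12.5 kept its sign with TPM, at 0.81, and lost its call, and Itga2b at E13.5, at -0.997, lost its call with TPM as well.

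At 1.5-fold, 6 members were called at E14.5 versus E13.5 and 12 at E14.5 versus E12.5, and at 4-fold 2, 1, 0 and 1 over the 4 comparisons. The edgeR exact test at a coefficient of variation of 0.1 called 12, 3, 0 and 3 members, at 0.2 it called 6, 0, 0 and 1, and at 0.4 none. At an unadjusted p under 0.05 the members numbered 6 at 0.1 in E14.5 versus E13.5, 3 at 0.2 in each of the steps to E13.5 and E14.5, and 2, 1, 0 and 1 at 0.4. The number of all features at an unadjusted p is not given here, so these counts cannot be set against a share of all features. At 0.2 the calls were Lama3, Lama5, Itga11, Itga4, Itgb2 and Itgb8 at E12.5 and Lama2 at E14.5 versus E12.5. All features had 1824, 51, 485 and 800 calls at 0.2 and 283, 1, 31 and 71 at 0.4, 366 and 940 at 0.1 in the steps to E13.5 and E14.5, 493 in the step to E13.5 with a minimum of 10 counts, 5033, 1743, 2364 and 3473 at 1.5-fold and 1386, 204, 493 and 720 at 4-fold. At 0.1 the calls of all features are not given here for E12.5 versus E11.5 and E14.5 versus E12.5. The causes were not tested. Of the 12 calls of members with fewer than 100 counts in a library compared, 8 have intervals that reach inside 2-fold, such as Itga7 at E14.5 (0.14 to 1.88) and Itgb7 at E12.5 (0.75 to 2.99).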

Other observations

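Itgad, a leukocyte alpha subunit, and Itgb2l, a gene close to Itgb2 in sequence, are listed in the libraries but are not among the 37 members, and they were looked up after the values of the members were seen. From E11.5 to E14.5, Itgad had 1, 1, 2 and 2 counts, and Itgb2l had 3, 4, 0 and 6 counts.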
